A study of Mus musculus with 9 samples.

Results

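The genes described here encode proteins that myeloid cells store in granules or secrete to kill and digest microbes, and 10 of them were listed by name: the lysozymes Lyz1 and Lyz2, the primary granule enzymes Mpo, Elane, Prtn3 and Ctsg, and the secondary granule proteins Lcn2, Ltf, Camp and Ngp. All 10 symbols matched 1 gene identifier each among the 55487 in the count lists. RNA came from unstimulated RAW264.7 cells, a mouse macrophage line, in 3 libraries each of wild-type (CEBPD wild type), C/EBPδ knock-out (CEBPD KO) and ΔTAD (CEBPD TAD mutant) macrophages. The edited cells were grown from single cells after Cas9 cutting with paired guides around the transactivation domain of Cebpd, and clones in which the edit was out of frame served as knock-out cells. The deposited design speaks of 3 independent clones, and it is not stated whether the wild-type libraries are clones as well, so p-values measure the spread between these libraries only. Effects of the edit and of the history of the clones cannot be told apart.

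Granule genes are switched on in a fixed order while a granulocyte matures. Promyelocytes fill primary granules with myeloperoxidase and serine proteases under C/EBPα, and later stages fill secondary granules with lactoferrin, lipocalin and cathelicidin under C/EBPε. Lysozyme cleaves the peptidoglycan of bacterial walls and is made in quantity by mature macrophages, where Lyz2 is the usual form. Lyz1 is best known from the Paneth cells of the small intestine.

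The libraries held from 16113306 to 20981829 counts on genes, and 3 counts, taken as the floor of detection, correspond to between 0.143 and 0.186 CPM (counts scaled to library size). In ΔTAD replicate 1, 11% of the counts lay on the ribosomal RNA gene CT010467.1, against at most 1.16% in the other libraries. Cebpd itself had 70 to 130 counts per library. All 3 wild-type libraries lay above all 3 knock-out libraries, the ΔTAD libraries overlapped both, and neither edited genotype was called against wild-type (adjusted p = 0.0850 and 0.0931, edgeR). A count over the whole gene does not show a deletion inside it, so the labels could not be checked by it. The macrophage markers Csf1r, Cd68, Cd14 and Adgre1 were counted in every library, while Mertk had at most 2 counts. Of 8 neutrophil markers, S100a9, Retnlg and Mmp8 were at 0 in all 9 libraries, and the summed level of all 8 was 2.12 to 3.18 CPM in wild-type, 4.89 to 5.38 CPM in knock-out and 3.43 to 5.71 CPM in ΔTAD libraries, carried by Csf3r and S100a8. The 5 mast cell markers were at 0 throughout, and no progenitor or lymphocyte marker exceeded 3 counts.

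The lysozyme genes lie side by side on the minus strand of chromosome 10 of GRCm38. Lyz2 (ENSMUSG00000069516) covers positions 117277331 to 117282321 and Lyz1 (ENSMUSG00000069515) 117287797 to 117292868, with 5475 bases between them, and each has 4 exons. They are close paralogs. Their coding sequences, 444 bases each without the stop codon, are 95.0% identical, with 22 differing bases and no gap. The second exon, which is coding in full, is printed for both genes because it shows what a 50-base read had to tell them apart by. It covers chr10:117291029-117291193 in Lyz1 and chr10:117280641-117280805 in Lyz2 (GRCm38, minus strand, GENCODE M21 transcripts), and capitals mark the 6 of 165 bases that differ.
Lyz1: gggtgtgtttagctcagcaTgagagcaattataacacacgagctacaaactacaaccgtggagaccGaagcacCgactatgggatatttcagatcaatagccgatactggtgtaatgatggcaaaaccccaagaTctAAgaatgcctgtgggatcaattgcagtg
Lyz2: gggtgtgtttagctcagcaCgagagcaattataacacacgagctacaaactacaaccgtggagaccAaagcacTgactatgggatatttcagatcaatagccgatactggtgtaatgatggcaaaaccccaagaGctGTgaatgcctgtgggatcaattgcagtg

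Over the whole transcripts, 16.1% of the 50-base windows of Lyz1 and 15.4% of those of Lyz2 occur unchanged in the other, and a read from such a window fits both genes. A further 341 windows of each differ by 1 base, and 55.8% of the Lyz1 windows and 57.7% of the Lyz2 windows differ by 2 bases or more. Values of these genes are therefore uncertain by what the counting did with reads that fit both. The count lists keep a separate tally of reads with more than 1 alignment, which is not part of the gene counts.

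Only 2 of the 10 genes, Lyz1 and Lyz2, were expressed above the filter on low counts and could be tested. Both were higher in knock-out and higher still in ΔTAD macrophages than in wild-type macrophages. Lyz1 rose 18.4-fold in knock-out and 34.7-fold in ΔTAD macrophages, and Lyz2 rose 1.81-fold and 3.59-fold. The other 8 genes were at or near the floor in all 3 genotypes. At the threshold of the study, an adjusted p-value under 0.01, 22.8% of the 14312 genes tested were called higher in knock-out macrophages and 26.3% in those with ΔTAD, and the call of 2 genes in that direction is read against this background. The share called lower was 22.4% and 23.4%. The plot of counts by gene shows the distance between the lysozymes and the rest.

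**Figure D1:**
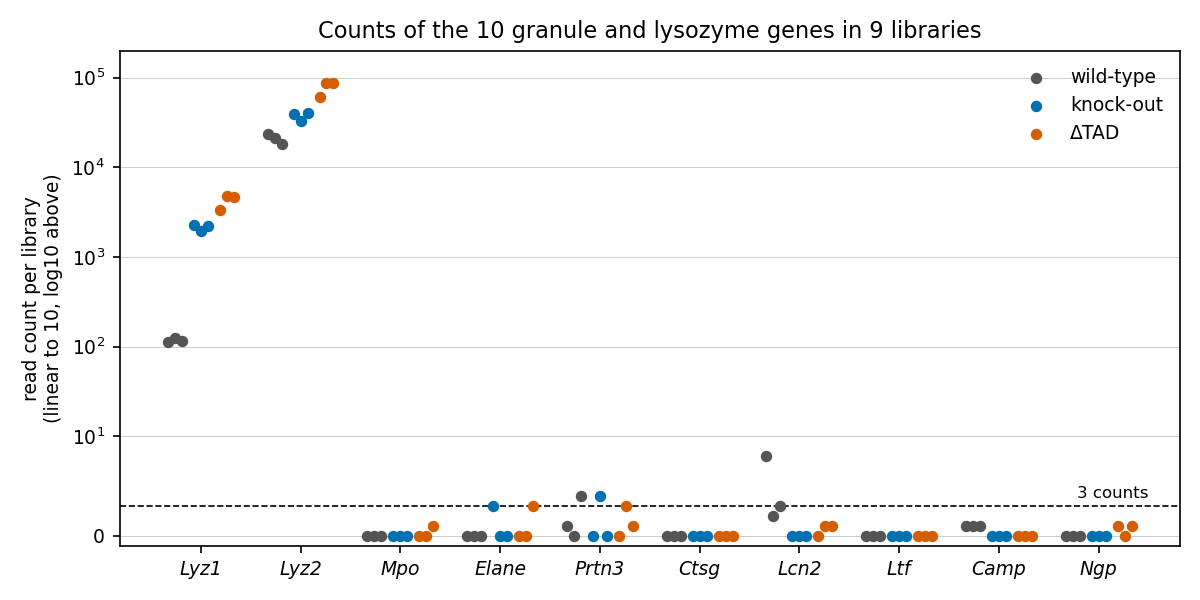
Read counts per library (vertical axis, linear to 10 and log10 above) of the 10 genes, with 3 points per genotype and a dashed line at the floor of 3 counts. Lyz1 and Lyz2 lie between 112 and 88391 counts, and no library of the other 8 genes exceeds 8 counts.

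Lyz2, the main lysozyme of macrophages, gave 23747, 21064 and 18143 counts in wild-type macrophages, 38974, 33223 and 40237 counts in knock-out macrophages and 60418, 88391 and 86233 counts in ΔTAD macrophages. After scaling, its level was 1184, 1219 and 1099 CPM in wild-type, 2055, 2008 and 2280 CPM in knock-out and 4226, 4244 and 4104 CPM in ΔTAD macrophages. The 3 genotypes did not overlap, and the spread within a genotype was small against the steps between them, with means of 1167 ± 61.9 CPM, 2114 ± 146 CPM and 4192 ± 76.4 CPM (SD, n = 3). Against wild-type, knock-out macrophages showed a log2 fold change of 0.86 (standard error 0.0364; the quasi-likelihood test of edgeR, with p-values adjusted by Benjamini-Hochberg, gave an adjusted p = 5.39e-16) and 1.84 in ΔTAD macrophages (standard error 0.0372, adjusted p = 1.97e-22 by the same edgeR test).

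Lyz1 gave 112, 126 and 116 counts in wild-type macrophages, 2300, 1949 and 2207 counts in knock-out macrophages and 3319, 4825 and 4669 counts in ΔTAD macrophages. Its level was 5.58, 7.29 and 7.02 CPM in wild-type, 121, 118 and 125 CPM in knock-out and 232, 232 and 222 CPM in ΔTAD macrophages. Again no libraries of different genotypes overlapped, and the means were 6.63 ± 0.919 CPM, 121 ± 3.65 CPM and 229 ± 5.62 CPM (SD, n = 3). The log2 fold change was 4.20 in knock-out (standard error 0.0590, adjusted p = 1.41e-25 from edgeR) and 5.12 in ΔTAD macrophages (standard error 0.0559, adjusted p = 5.93e-28 from edgeR). Of the 14312 genes tested, 19 had a higher fitted log2 fold change than Lyz1 in knock-out and 15 in ΔTAD macrophages, while 798 and 173 had a higher one than Lyz2.

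**Figure D2:**
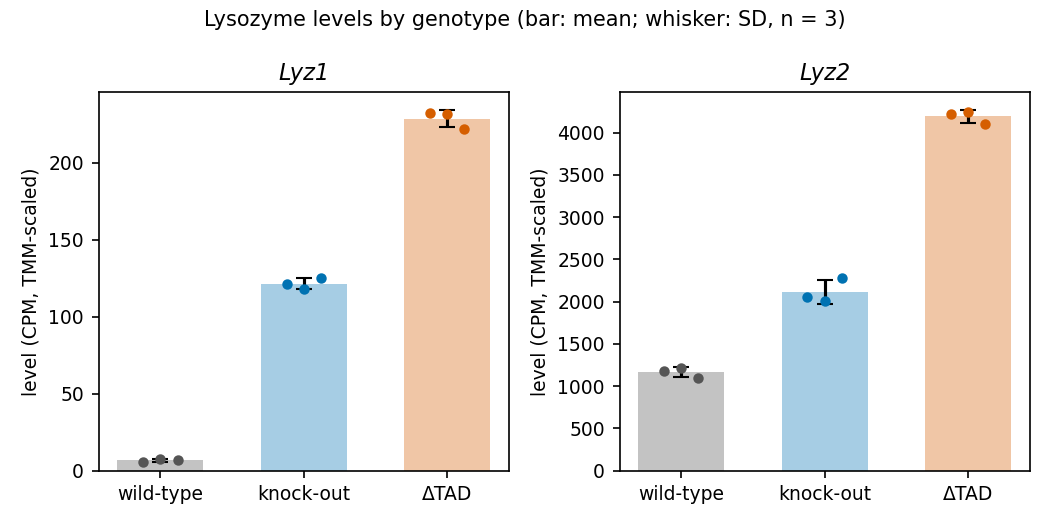
Levels of Lyz1 (left) and Lyz2 (right) in CPM after TMM scaling for the 3 genotypes, with bars for means, whiskers for SD (n = 3) and points for libraries. Lyz1 steps from 6.63 to 121 and 229 CPM and Lyz2 from 1167 to 2114 and 4192 CPM, with no overlap between genotypes.

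Compared directly, knock-out macrophages had less of both lysozyme transcripts than ΔTAD macrophages. The log2 fold change of knock-out against ΔTAD was −0.91 for Lyz1 (standard error 0.0368, adjusted p = 7.25e-16 from edgeR) and −0.99 for Lyz2 (standard error 0.0364, adjusted p = 1.20e-16 from edgeR), that is, ΔTAD macrophages held 1.88 times and 1.98 times the knock-out level. In this comparison 19.1% of all genes tested were called lower in knock-out macrophages. The order of levels was thus wild-type, knock-out and ΔTAD for both genes, each step being larger than the spread between libraries. Requiring a log2 fold change of at least 1 in size as well left Lyz1 alone in knock-out against wild-type macrophages and neither gene in knock-out against ΔTAD macrophages.

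Per kilobase of exon, which allows a comparison between genes, Lyz2 was at 887 ± 47.1 CPM per kb in wild-type, 1607 ± 111 CPM per kb in knock-out and 3185 ± 58.1 CPM per kb in ΔTAD macrophages (SD, n = 3). On this scale Lyz2 ranked 11 to 13 among 21974 protein-coding genes in the wild-type libraries, 7 in each knock-out library and 3 to 4 in the ΔTAD libraries. Lyz1 was at 5.25 ± 0.727 CPM per kb in wild-type, 96.1 ± 2.89 CPM per kb in knock-out and 181 ± 4.45 CPM per kb in ΔTAD macrophages (SD, n = 3). Its rank moved from between 6527 and 7269 in wild-type to between 343 and 356 in knock-out and between 139 and 151 in ΔTAD libraries. Lyz1 was below Lyz2 in every library. Together they took 0.113% to 0.126% of the counts of a wild-type library, 0.215% to 0.244% of a knock-out library and 0.396% to 0.447% of a ΔTAD library.

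The mix of the paralogs differed between the edited and the wild-type libraries. Lyz1 made up 0.469%, 0.595% and 0.635% of the summed lysozyme counts in wild-type macrophages, against 5.57%, 5.54% and 5.20% in knock-out macrophages and 5.21%, 5.18% and 5.14% in ΔTAD macrophages. The widest 95% Wilson interval of a wild-type library ended at 0.761%, and the lowest interval of an edited library began at 4.99%. Intervals of this kind, and likewise the floor, cover counting error only. The mean share was 0.566% ± 0.0865 for wild-type, 5.44% ± 0.207 for knock-out and 5.17% ± 0.0356 for ΔTAD macrophages (SD, n = 3). Both edited genotypes lay above wild-type without overlap (two-sided exact permutation test, p = 0.1 each, the smallest value that 3 against 3 libraries allow; adjusted over 3 tests, p = 0.15). Knock-out and ΔTAD macrophages overlapped, and their means differed by 0.265 percentage points (exact permutation test, p = 0.2; adjusted p = 0.2).

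If every Lyz1 count of the wild-type libraries were a stray read of Lyz2, the same stray rate would give 187 to 226 Lyz1 counts in a knock-out library and 340 to 497 in a ΔTAD library. This is between 9.53% and 10.4% of the Lyz1 counts found there. The sum of both genes changed by 0.93 (knock-out) and 1.91 (ΔTAD) on the log2 scale and was called in both comparisons. It does not depend on how the counted reads were divided between the genes. Reads with several alignments are absent from it, and Lyz2 makes up most of it, so it does not test the rise of Lyz1.

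**Figure D3:**
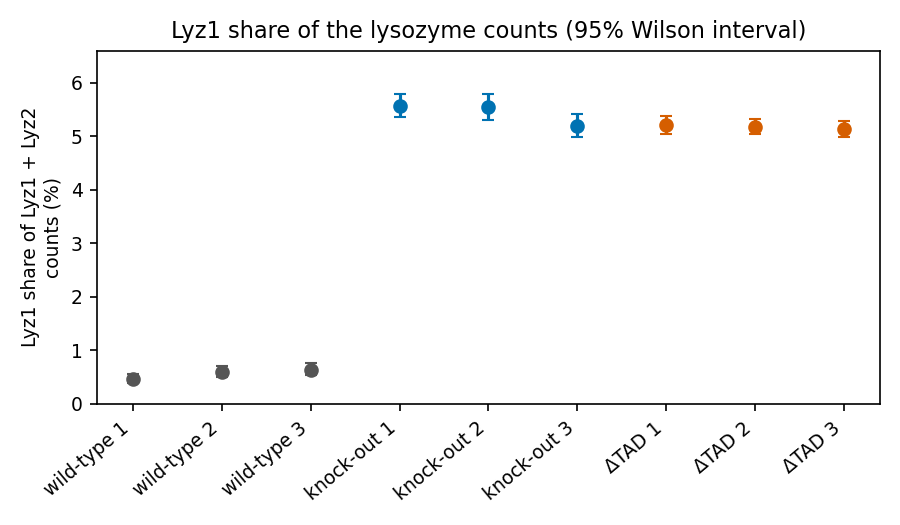
Share of Lyz1 in the summed Lyz1 and Lyz2 counts (percent) in each library, with 95% Wilson intervals that cover counting error only. The wild-type libraries lie between 0.469% and 0.635% and the 6 edited libraries between 5.14% and 5.57%.

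The genes around the lysozymes were compared with them. Within 1 Mb of the Lyz2 start, 14 further genes were tested. They had a median log2 fold change of 0.02 (knock-out) and 0.08 (ΔTAD), with 4 called higher and 5 lower in the former and 5 higher and 3 lower in the latter. Over all genes tested, 22.8% were called higher and 22.4% lower in knock-out, and 26.3% and 23.4% in ΔTAD macrophages. The highest value among the 14 neighbours belonged to Mdm2, the ubiquitin ligase of p53, at 1.12 (knock-out) and 0.79 (ΔTAD) on the log2 scale. Cpsf6 and Yeats4, among the nearest neighbours, had −0.17 and −0.08 in knock-out and −0.09 and 0.18 in ΔTAD macrophages. The 646 genes tested on chromosome 10 had medians of 0.02 and 0.03. The value of Mdm2 in knock-out macrophages was thus above that of Lyz2 (0.86), while in ΔTAD macrophages no neighbour reached Lyz2, and none reached Lyz1 in either.

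**Figure D4:**
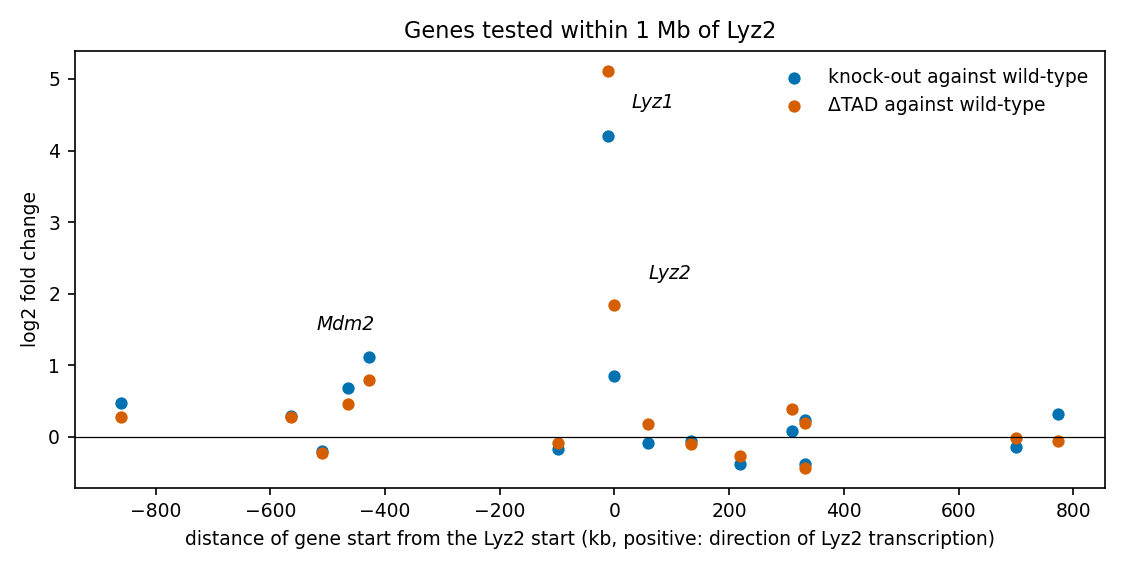
Log2 fold change against wild-type (vertical axis) of the genes tested within 1 Mb of Lyz2, by the distance of their start from the Lyz2 start in kb (horizontal axis, positive in the direction of Lyz2 transcription). Lyz1 lies above all neighbours in both genotypes, and Lyz2 lies above them in ΔTAD macrophages but below Mdm2 (1.12) in knock-out macrophages.

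The promoters of Lyz1 and Lyz2 are shown because these genes moved in the same direction. Printed is the stretch from 250 to 50 bases before the RefSeq start (GRCm38.p6, minus strand), chr10:117292918-117293118 for Lyz1 and chr10:117282322-117282522 for Lyz2, which stops short of the transcript. Capitals mark matches to CCAAT or to TTGCNNAA, the core of many C/EBP sites, on either strand.
Lyz1: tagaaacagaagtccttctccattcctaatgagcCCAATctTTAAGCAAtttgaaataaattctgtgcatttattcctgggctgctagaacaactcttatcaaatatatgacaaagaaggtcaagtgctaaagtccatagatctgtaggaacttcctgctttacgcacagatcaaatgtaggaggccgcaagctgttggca
Lyz2: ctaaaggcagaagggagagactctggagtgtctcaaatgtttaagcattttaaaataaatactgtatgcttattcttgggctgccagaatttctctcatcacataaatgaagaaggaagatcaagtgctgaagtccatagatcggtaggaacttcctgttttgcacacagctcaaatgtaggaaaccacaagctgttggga

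The stretches were 74.4% identical in a global alignment, with 48 differing bases and 4 gap positions. Lyz1 held a CCAAT match 216 bases and, not overlapping it, a TTGCNNAA match 209 bases before its start, and the Lyz2 stretch held neither. Over whole windows of 300 bases, TTGCNNAA was found in 4 of the 10 genes (Lcn2, Ngp, Ltf and Lyz1) and in 10.8% of all 32851 RefSeq promoter windows. CCAAT was found in Ngp, Ltf, Elane and Lyz1 and in 37.4% of all windows. GAGGAA, a form of the sites recognised by PU.1, was found in 6 of the 10 genes and in 28.3% of all windows, in neither lysozyme gene. Other forms of PU.1 site were not searched for, so the lysozyme genes are not shown to lack them. A match is a run of letters and not a binding site, and 3 of the 4 genes with TTGCNNAA were at or near 0 counts.

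The primary granule enzymes were at or near the floor in all genotypes. Mpo, the myeloperoxidase that makes hypochlorous acid (ENSMUSG00000009350, chromosome 11 from 87793581 to 87804413), had 1 count in ΔTAD replicate 3 and 0 in the other 8 libraries. Ctsg, the serine protease cathepsin G (ENSMUSG00000040314, chromosome 14 from 56099881 to 56102574), had 0 counts in all 9 libraries. Elane, neutrophil elastase (ENSMUSG00000020125, chromosome 10 from 79886247 to 79888215), had 3 counts in knock-out replicate 1, 3 in ΔTAD replicate 3 and 0 elsewhere. Its neighbour Prtn3, proteinase 3 (ENSMUSG00000057729, chromosome 10 from 79874476 to 79883174), had 1, 0 and 4 counts in wild-type, 0, 4 and 0 in knock-out and 0, 3 and 1 in ΔTAD libraries. Prtn3 shares exon positions with Plppr3 on the other strand, which had at most 20 counts, and the strand setting of the counting is not given in the sources used here. No difference between genotypes was detectable for these 4 genes at this depth.

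Among the secondary granule genes, Ltf, the iron binder lactoferrin (ENSMUSG00000032496, chromosome 9 from 111019271 to 111042767), had 0 counts in all 9 libraries. Camp, the cathelicidin precursor (ENSMUSG00000038357, chromosome 9 from 109847379 to 109849617), had 1 count in each wild-type library and 0 in the 6 edited libraries. Ngp, neutrophilic granule protein of the cystatin fold (ENSMUSG00000032484, chromosome 9 from 110419747 to 110423012), had 1 count each in ΔTAD replicates 1 and 3 and 0 elsewhere. These counts are below the floor, and 0 counts in a library allow up to 3, or 0.143 to 0.186 CPM, against at least 1099 CPM of Lyz2.

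Lcn2, the lipocalin that withholds iron from bacteria by binding their siderophores (ENSMUSG00000026822, chromosome 2 from 32384633 to 32388252), was the only gene besides the lysozymes and Prtn3 with more than 3 counts in a library. It had 8, 2 and 3 counts in wild-type, 0, 0 and 0 in knock-out and 0, 1 and 1 in ΔTAD libraries. Each wild-type library thus had more counts than any edited library, but how many genes show such a separation was not computed. By the edgeR calls, which Lcn2 did not enter, 22.4% of tested genes were lower in knock-out and 23.4% in ΔTAD macrophages. Only wild-type replicate 1 was above the floor of 3 counts, the other wild-type libraries being at or under it like the edited ones, so no fold is given. Lcn2 did not pass the filter. When all 26804 genes with a count were fitted, it was called lower in knock-out (adjusted p = 0.00283, edgeR) and not in ΔTAD macrophages (adjusted p = 0.0507, edgeR). Without wild-type replicate 1, which held 8 of its 13 wild-type counts, the knock-out call was lost (adjusted p = 0.0690, edgeR). In the same fit Camp, Ngp, Mpo, Elane and Prtn3 were not called, and Ltf and Ctsg, at 0, could not be included.

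Genes around granule proteins were taken from 7 lists, with 97 genes outside the 10. Of these, 96 matched an identifier, 29 were at 0 in every library, and 43, with those 29, never exceeded 3 counts. Of the 46 that could be tested, 22 were higher and 10 lower in knock-out macrophages, and 21 were higher and 11 lower in ΔTAD macrophages. This is 69.6% called in each comparison, where 45.2% of all genes tested were called in knock-out and 49.7% in ΔTAD macrophages.  The median log2 fold change of the 46 was 0.17 (knock-out) and 0.09 (ΔTAD), beside 0.00 over all genes tested in both. With library size as the only scaling, the calls were 18 higher and 9 lower in knock-out and 17 higher and 14 lower in ΔTAD macrophages.

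**Figure D5:**
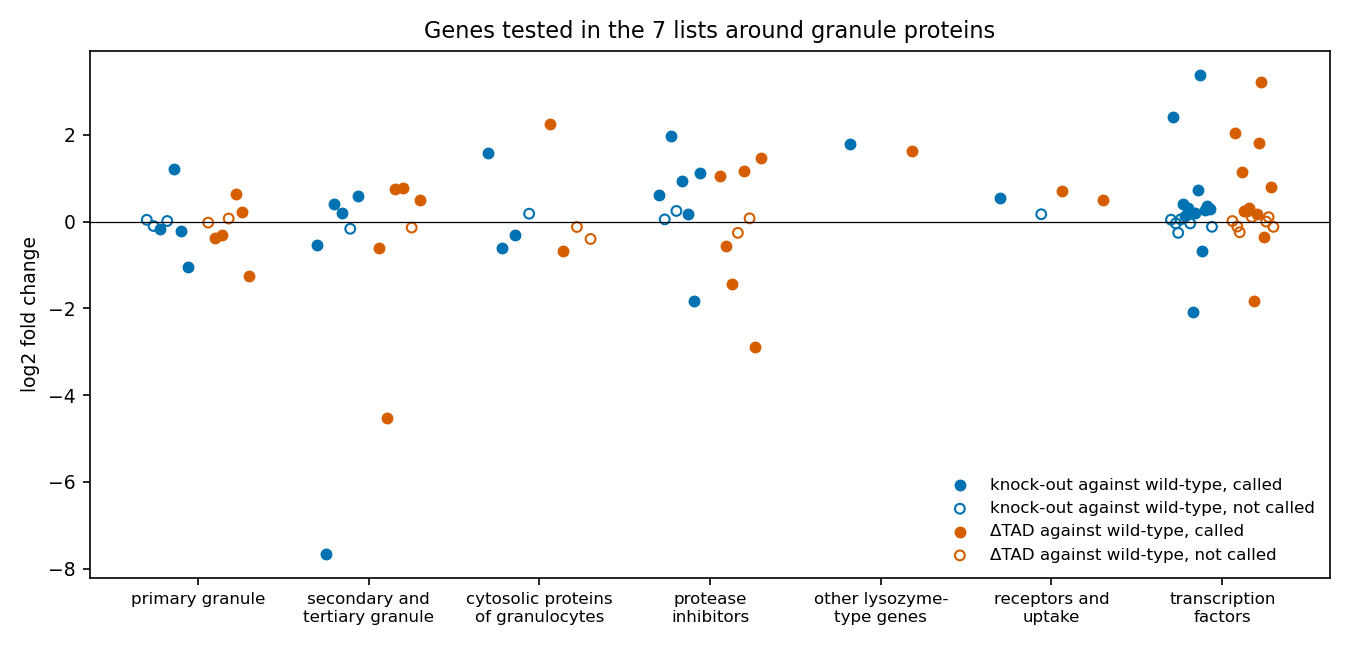
Log2 fold change against wild-type of the 46 tested genes in 7 lists around granule proteins, for knock-out (blue) and ΔTAD (orange) macrophages, with filled points for genes called at an adjusted p under 0.01 and open points for the others. Points lie on both sides of 0 in most lists, and the lowest pair is Arg2, whose edited libraries are at the floor.

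In the list of further primary granule genes, 7 of 12 were tested, with 1 higher and 3 lower in knock-out and 2 higher and 3 lower in ΔTAD macrophages. Shares over all genes tested were 22.8% higher and 22.4% lower in knock-out, and 26.3% and 23.4% in ΔTAD macrophages. The neutrophil-type genes Ms4a3 and Fcnb were at 0, and Prss57 and Bpi had 1 count each over the 9 libraries. Srgn, the proteoglycan serglycin on which granule proteases are packed, fell from 122 ± 5.11 CPM in wild-type to 59.4 ± 4.56 CPM in knock-out and 51.0 ± 1.80 CPM in ΔTAD macrophages (SD, n = 3). Igfbp4, an IGF binding protein, had log2 fold changes of opposite sign, −0.21 in knock-out against 0.21 in ΔTAD macrophages, both called. Clec5a, a myeloid lectin receptor, fell in ΔTAD macrophages (log2 fold change −0.38) and had −0.10 in knock-out macrophages, which was not called (adjusted p = 0.0177, edgeR).

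In the list of secondary and tertiary granule genes, 6 of 25 were tested and 11 were at 0 throughout, among them Mmp8, Chil3 and the stefins. The calls were 3 higher and 2 lower in each edited genotype. Beside them, 22.8% of all genes tested were called higher and 22.4% lower in knock-out, and 26.3% and 23.4% in ΔTAD macrophages. Cybb and Cyba, the membrane subunits of the phagocyte oxidase, rose in both genotypes, with log2 fold changes of 0.19 and 0.42 in knock-out and 0.77 and 0.75 in ΔTAD macrophages. Adam8, a membrane protease, fell by 0.53 and 0.61 on the log2 scale. Arg2, the mitochondrial arginase, had 35, 24 and 16 counts in wild-type, 0 in every knock-out library and 1 in every ΔTAD library, so the knock-out level was at least 8.05-fold lower when set at the floor. Arg2 shares exon positions with Gm48780 and Vti1b on the other strand, as Adam8, Cebpa, Cebpb, Cebpd and Gfi1 do with other genes, and their values are uncertain by what strand setting was used.

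Among cytosolic proteins of granulocytes, S100a9, a subunit of calprotectin, was at 0, and its partner S100a8 had 6 to 26 counts per library and was not called. Anxa1, annexin A1, which dampens neutrophil recruitment, rose from 99.4 ± 3.87 CPM in wild-type to 297 ± 11.8 CPM in knock-out and 476 ± 9.17 CPM in ΔTAD macrophages (SD, n = 3), and knock-out macrophages were lower than ΔTAD macrophages (log2 fold change −0.68). S100a11 fell by 0.61 and 0.68 on the log2 scale in knock-out and ΔTAD macrophages. S100a6 fell by 0.31 in knock-out macrophages and had −0.12 in ΔTAD macrophages, which was not called (adjusted p = 0.0119, edgeR).

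The inhibitors of granule proteases moved in both directions, with 5 higher and 1 lower in knock-out and 3 higher and 3 lower in ΔTAD macrophages among 8 tested of 14. All genes tested were called higher in 22.8% and lower in 22.4% of cases in knock-out, and in 26.3% and 23.4% in ΔTAD macrophages. Serpinb1a, an inhibitor of elastase, cathepsin G and proteinase 3, had 239, 174 and 173 counts in wild-type, 807, 675 and 780 in knock-out and 43, 87 and 95 in ΔTAD libraries. The edited genotypes lay on opposite sides of wild-type, at 42.5 ± 1.71 CPM in knock-out and 3.90 ± 0.793 CPM in ΔTAD against 10.8 ± 0.970 CPM in wild-type macrophages (SD, n = 3). Its paralog Serpinb1c rose in both, with log2 fold changes of 0.93 and 1.17. Slpi, the secretory leukocyte protease inhibitor, had 24, 14 and 21 counts in wild-type, 5, 8 and 3 in knock-out and 1, 4 and 3 in ΔTAD libraries, and was called lower in both. Wfdc17, of the same whey acidic protein family, rose from 2.29 ± 0.757 CPM to 5.09 ± 1.10 CPM and 6.50 ± 0.520 CPM (SD, n = 3).

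Of 8 other genes of the lysozyme type, 7 were at 0 in every library. Lyzl4, a lysozyme-like gene known from testis, had 8, 9 and 3 counts in wild-type, 28, 15 and 26 in knock-out and 14, 18 and 33 in ΔTAD libraries. Its log2 fold change was 1.79 in knock-out (standard error 0.382, adjusted p = 0.000311, edgeR) and 1.62 in ΔTAD macrophages (standard error 0.387, adjusted p = 0.000886, edgeR). Among receptors and uptake proteins, 2 of 11 were tested. Lrp1, a scavenging receptor that binds lactoferrin and protease complexes, rose from 1361 ± 59.4 CPM to 1984 ± 73.1 CPM and 2238 ± 88.1 CPM (SD, n = 3). P2rx7, an ATP-gated channel, rose in ΔTAD macrophages (log2 fold change 0.49) and had 0.17 in knock-out macrophages, which was not called (adjusted p = 0.0554, edgeR). The formyl peptide receptors Fpr1 and Fpr2 were at 0.

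Among 22 transcription factors of granule genes, 18 were tested, with 10 higher and 2 lower in knock-out and 9 higher and 2 lower in ΔTAD macrophages. Of all genes tested, 22.8% were called higher and 22.4% lower in knock-out, and 26.3% and 23.4% in ΔTAD macrophages. Cebpa, for C/EBPα, had 42, 65 and 54 counts in wild-type, 315, 280 and 249 in knock-out and 174, 252 and 273 in ΔTAD libraries, and its level rose 5.29-fold and 4.15-fold. Cebpe, for C/EBPε, was at 8.39 ± 0.656 CPM in wild-type, 8.74 ± 0.636 CPM in knock-out and 18.4 ± 1.26 CPM in ΔTAD macrophages (SD, n = 3). It was called in ΔTAD macrophages only (log2 fold change 1.14), and the difference between ΔTAD and knock-out macrophages was called as well (log2 fold change of knock-out against ΔTAD −1.08). Cebpb had log2 fold changes of −0.04 and −0.11 and Cebpd of −0.26 and −0.24, none of them called.

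Spi1, for PU.1, rose from 117 ± 4.96 CPM to 143 ± 2.57 CPM and 203 ± 6.16 CPM (SD, n = 3). Gfi1, a repressor that acts within the granulocyte lineage, fell from 3.04 ± 0.609 CPM to 0.709 ± 0.143 CPM and 0.816 ± 0.291 CPM (SD, n = 3). Myc rose 10.5-fold and 9.39-fold, and Klf4 rose by 0.72 and 1.80 on the log2 scale. Myb, active in progenitors, was at 0. In bulk RNA such as this, a change in the number of cells that express a gene and a change in RNA per cell cannot be told apart. Whether the levels of these factors bear on the lysozyme genes was not tested.

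Across the 9 libraries, the profiles most like that of Lyz1, by Pearson's r of log2 CPM over 12718 other genes whose mean reached 1 CPM, were those of Dpysl2 (r = 0.999), Sptbn1 (r = 0.999) and S1pr1 (r = 0.998). Sptbn1, a spectrin, also had fold changes of like size, at 4.43 (knock-out) and 5.14 (ΔTAD) on the log2 scale, while Dpysl2, a protein that binds tubulin, had 0.76 and 0.93 and S1pr1, a sphingosine phosphate receptor, had 1.39 and 1.72. Most like Lyz2 were Zfhx4 (r = 0.998), Daglb (r = 0.996) and Slc39a1 (r = 0.996). Zfhx4, a zinc finger and homeobox gene, had log2 fold changes of 2.40 and 4.95, Daglb, a diacylglycerol lipase, 0.23 and 0.55 and Slc39a1, a zinc importer, 0.24 and 0.51. Lyz1 and Lyz2 were less alike (r = 0.919), with Lyz2 at rank 1502 for Lyz1 and Lyz1 at rank 1034 for Lyz2. With 9 libraries in 3 genotypes, such values mainly give the order and spacing of the genotype means, and many genes share them, since 156 genes had an r over 0.99 with Lyz1 and 30 with Lyz2.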

How the data were processed

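RNA of unstimulated RAW264.7 macrophages was sequenced in 3 libraries for each of 3 genotypes. Ribosomal RNA had been removed by the authors, and single reads of 50 bases were trimmed (Trimmomatic, version 0.36 by the submitters' processing notes), aligned (Hisat2, GRCm38) and assigned to Ensembl genes (HTSeq). The deposited values are raw read counts, 1 list per library, without normalization. The 5 tally lines, 46.8% to 53.3% of the records of a library, were left out. The donor labels gave genotype and replicate number.

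The members and lists were chosen with earlier results of these data known. The analysis used edgeR 4.0.16 (R 4.3.3): filterByExpr by genotype (minimum count 10, minimum total 15), TMM scaling, 1 quasi-likelihood model of all 9 libraries, and Benjamini-Hochberg adjustment over 14312 genes, called under 0.01. A standard error is the absolute log2 fold change over the root of the F statistic. CPM use the TMM-scaled library sizes, except those of the floor of 3 counts. Named were the 10 genes, up to 4 called genes per list with a mean of at least 1 CPM and the largest change, 6 fixed factors (Cebpa, Cebpb, Cebpe, Cebpd, Gfi1 and Spi1), and the 3 genes most like each tested member (log2 CPM, prior count 2). Other genes named by their counts, the neighbours named, and the share of Lyz1, were picked with their values in view. 1 list gene that the rule names is not reported here, although counts and medians over the lists include it. The shares were tested with exact permutation tests (scipy 1.17.1). Positions, exon lengths and transcripts are from GENCODE M21, promoters from RefSeq, all on GRCm38. Of the 55487 identifiers, 55141 matched a symbol. No libraries of a genotype were identical, and all pairs differed by more than sampling noise. The fit was tested on simulated data.

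Other settings tried were a replicate block, library size as the only scaling, the size factors of DESeq2, DESeq2 1.42.0 itself, limma-voom (limma 3.58.1), no filter beyond 1 count, fits of the compared genotypes alone, an adjusted p under 0.05, a log2 fold change of at least 1, the lysozymes summed, each library left out, and, chosen after seeing the data, CT010467.1 removed, and every gene with at least 1 count without wild-type replicate 1.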

Additional observations from a re-analysis of the deposited data

Results flagged for a closer look

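The direct comparison of knock-out with ΔTAD macrophages is also the test of whether the edited genotypes differ from wild-type by unequal amounts. It was called (edgeR, adjusted p under 0.01) for both lysozymes and for 14 named genes of the lists. The named genes were picked partly by their change in this same comparison, so the 14 do not measure how often list genes differed. Of all 46 list genes tested, 47.8% were called here, where 33.0% of all 14312 genes tested were called. The log2 fold change of knock-out against ΔTAD was −0.91 for Lyz1 and −0.99 for Lyz2. It was also negative for Klf4 (−1.08), Cebpe (−1.08), Anxa1 (−0.68), Cybb (−0.58), Spi1 (−0.50), Igfbp4 (−0.42), Cyba (−0.33), P2rx7 (−0.32), S100a6 (−0.18) and Lrp1 (−0.17). It was positive for Serpinb1a (3.41), Cebpa (0.35), Clec5a (0.28) and Srgn (0.22).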

How the results depend on the processing

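In the 3 comparisons (knock-out with wild-type, ΔTAD with wild-type, knock-out with ΔTAD), both lysozymes kept their direction and their call under all 19 alternatives run for their fold changes, the sum included. Leaving out each library in turn gave log2 fold changes of 4.09 to 4.29 and 5.00 to 5.20 for Lyz1 and 0.79 to 0.90 and 1.80 to 1.88 for Lyz2 against wild-type. The number of members called was 2 without any 1 library in each comparison. It was 1 with Lyz1 and Lyz2 summed in each comparison, by construction. A log2 fold change of at least 1 left 1 member in knock-out against wild-type and 0 in knock-out against ΔTAD macrophages, and of the list genes 11, 14 and 3 in the 3 comparisons in place of 32, 32 and 22. Library numbers did not pair the libraries (correlations of same-numbered deviations from −0.07 to 0.02), and with the replicate number as a block the members called stayed at 2 and the list genes at 32, 32 and 22. Without a filter beyond 1 count, Lcn2 joined the members called in knock-out against wild-type macrophages (3 in all). A prior count of 0.25 in place of 2 put S1pr1 at rank 4 in likeness to Lyz1 in place of rank 3. Depth limits the other 8 genes, for which changes below 3 counts per library could not be seen.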
